A study of Mus musculus with 2 samples.

Results

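The miR-26 family of the mouse comprises 3 microRNA genes, Mir26b, Mir26a-2 and Mir26a-1, each inside a gene of the Ctdsp family of small phosphatases. All 3 were found by their identifiers among the 1973 microRNA genes counted in embryonic liver. They were chosen by name and not by their counts, though with earlier results of these data known. The liver was taken on embryonic day 13.5 from healthy embryos of the strain B6NCrl, males and females pooled, with no treatment. It was profiled as 2 libraries of RNA under 30 bases, numbered in the labels as biological replicates 2 and 1, from separate biosamples listed under 1 donor record. Pooling of embryos means that spread between single animals cannot be read from these libraries.

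A microRNA is cut from a hairpin and guides silencing of messenger RNAs that match its seed, bases 2 to 8. Mature miR-26 comes from the 5p arm of the hairpin, and the 3p arm gives the less used strand. The family is known for restraining the cell cycle and for targeting the Polycomb methyltransferase Ezh2, and its loss is known from human liver cancer. Its hosts encode small phosphatases that act on the C-terminal domain of RNA polymerase II. In human cells, the CTDSP genes are known to be transcribed together with the miR-26 genes in their introns. The liver of the mid-gestation embryo makes most of its blood cells, beside hepatocytes that are still maturing.

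The mature sequences decide what the count tables can show, so they are given first, 5′ to 3′, from RefSeq on GRCm38.p6, with the seed in capitals. All 3 genes matched an entry there.
miR-26b-5p (Mir26b): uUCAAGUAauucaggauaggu
miR-26a-5p (Mir26a-2 and Mir26a-1): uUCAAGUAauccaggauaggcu
miR-26b-3p: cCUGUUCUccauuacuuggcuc
miR-26a-2-3p: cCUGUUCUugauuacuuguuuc
miR-26a-1-3p: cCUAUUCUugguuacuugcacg

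The 5p arms share the seed UCAAGUA, which no other gene among the 1058 RefSeq microRNA genes with a mature sequence carries. miR-26b-5p has 21 bases and miR-26a-5p has 22. Counted from the 5′ end, with the base of miR-26a-5p first, the differences within the first 21 bases are C11U and C21U. Both lie outside the seed. The 3p arms differ more. miR-26a-2-3p matches miR-26a-1-3p at 16 of 22 bases, and miR-26b-3p matches miR-26a-2-3p at 18 of 22 bases. miR-26b-3p and miR-26a-2-3p share the seed CUGUUCU, which is also carried by Mir6932 and Mir7039. Mir6932 had 0 counts in replicate 2 and 1 count in replicate 1, and Mir7039 had 0 in both. miR-26a-1-3p has a seed of its own, CUAUUCU.

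The miR-26a-5p sequence is the same at both Mir26a genes, and the identity runs on into the hairpins. The hairpins below show in capitals the longest stretch shared by Mir26a-2 and Mir26a-1, and in Mir26b the mature miR-26b-5p.
Mir26b: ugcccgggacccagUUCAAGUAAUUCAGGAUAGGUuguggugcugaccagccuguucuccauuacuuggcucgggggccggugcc
Mir26a-2: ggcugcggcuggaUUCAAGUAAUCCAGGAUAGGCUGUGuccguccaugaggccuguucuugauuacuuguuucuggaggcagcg
Mir26a-1: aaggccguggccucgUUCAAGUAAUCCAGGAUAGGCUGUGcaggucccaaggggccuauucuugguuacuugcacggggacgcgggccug

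The shared stretch is 25 bases long, 22 of miR-26a-5p and 3 that follow it. The base before miR-26a-5p already differs between the loci. A read that lies within these 25 bases therefore matches both genes. The deposited tables hold reads that mapped to several places as a total of their own and give them to no gene. Without mismatches, only reads with a base outside the stretch can be told apart, such as reads of the 3p arms or reads longer at either end. The Mir26a rows thus leave out the reads of miR-26a-5p itself that lie within the stretch, and their counts are lower limits on miR-26a. How many such reads there were was not analysed here. Mir26b shares no word of 18 bases with any other of the 1005 RefSeq hairpins, and its longest shared word with a Mir26a hairpin is 11 bases. Its row has no such gap among these hairpins. The genome outside the hairpins was not searched.

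Each member lies in an intron, on the strand of its host. Mir26b (ENSMUSG00000065468.1) is at chr1:74394310-74394394 on the plus strand of GRCm38 (mm10), in intron 4 of 6 of Ctdsp1. That intron is short, at 564 bases. Mir26a-2 (ENSMUSG00000065430.1) is at chr10:126995530-126995613 on the plus strand, in intron 5 of 7 of Ctdsp2, which has 1946 bases. It ends 241 bases before the next exon. A further 2 transcripts of Ctdsp2 in GENCODE M21 begin on the last base of this hairpin and so overlap it by 1 base. Mir26a-1 (ENSMUSG00000065513.1) is at chr9:119031796-119031885 on the plus strand, in intron 5 of 7 of Ctdspl, which has 3283 bases. The hosts differ far more in size than the hairpins do. Ctdsp1 spans 5777 bases, Ctdsp2 21259 and Ctdspl 117546. The hairpins measure 85, 84 and 90 bases, their GC content is 58.8%, 53.6% and 60.0%, and their predicted folding energies are -43.5, -44.5 and -49.4 kcal/mol, in the order Mir26b, Mir26a-2, Mir26a-1. The fourth gene of the host family, Ctdspl2, held no counted microRNA gene.

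**Figure D1:**
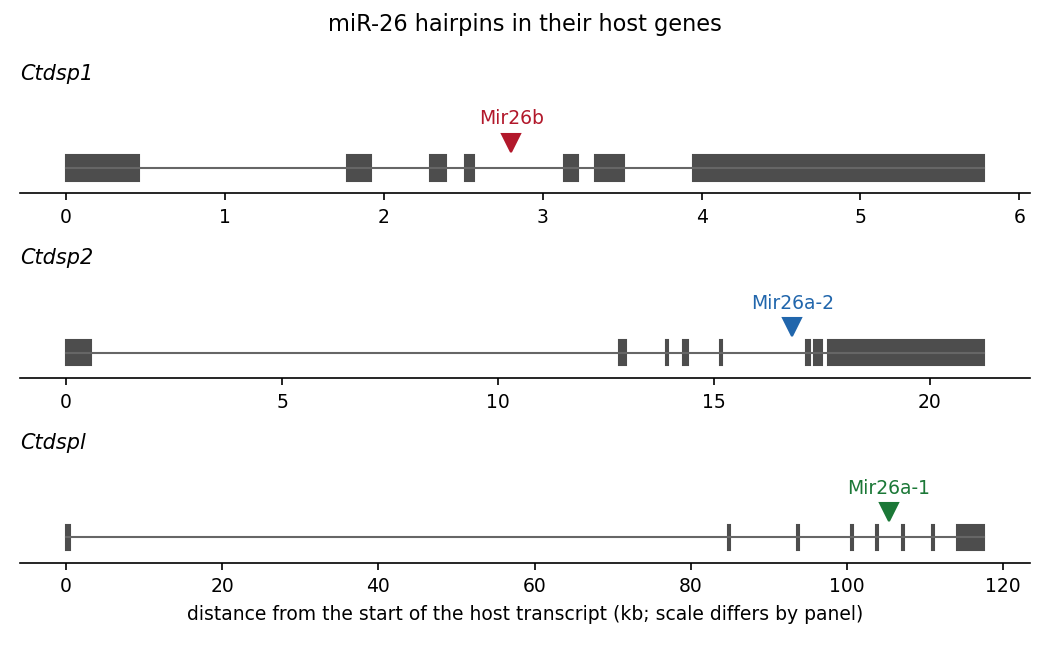
Position of each miR-26 hairpin (triangle) in the principal transcript of its host, with exons as boxes, against the distance from the transcript start in kb. Mir26b lies 2.80 kb, Mir26a-2 16.8 kb and Mir26a-1 105 kb from the start, each in an intron.

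Counts on each gene's own strand were scaled to CPM, counts per 1000000 of the library's 4286742 such counts in replicate 2 and 2607403 in replicate 1. Reads that mapped to several places came to 4017413 (32.0% of reads) and 2819005 (36.7%). That is 0.937 and 1.08 such reads for each count given to a gene. Gene rows showed the markers of the tissue: Mir122 of hepatocytes stood at 79994 ± 213 CPM, and Mir451a of red cell precursors at 18546 ± 11026 CPM (SD, n = 2). Mir126a, taken here as an endothelial marker though not shown to mark endothelium alone, stood at 56024 ± 2091 CPM.

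Mir26b was one of the most abundant rows of the embryonic liver, and the rows of both Mir26a genes held few counts. Mir26b had 155168 counts in replicate 2 and 108811 counts in replicate 1. These were 36197 CPM (95% exact Poisson interval 36017 to 36378) in replicate 2 and 41732 CPM (41484 to 41980) in replicate 1. The mean was 38964 ± 3913 CPM (SD, n = 2). Both libraries held this gene at place 6 of the 367 detected genes, those with at least 10 counts in each library.

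The Mir26a-2 row had 178 counts in replicate 2 and 113 in replicate 1, or 41.5 CPM (35.6 to 48.1) and 43.3 CPM (35.7 to 52.1). The mean was 42.4 ± 1.28 CPM (SD, n = 2), at place 235. The libraries lay within each other's counting intervals. The Mir26a-1 row was the lowest of the 3, with 34 counts in replicate 2 and 31 in replicate 1. These were 7.93 CPM (5.49 to 11.1) and 11.9 CPM (8.08 to 16.9), with a mean of 9.91 ± 2.80 CPM (SD, n = 2), at place 302. No member had a count on the opposite strand in either library. All 3 members thus counted as detected. The intervals are computed from each count and take in counting error alone. Reads were counted without molecular identifiers, so copies of the same molecule are not told apart and the intervals can be too narrow.

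**Figure D2:**
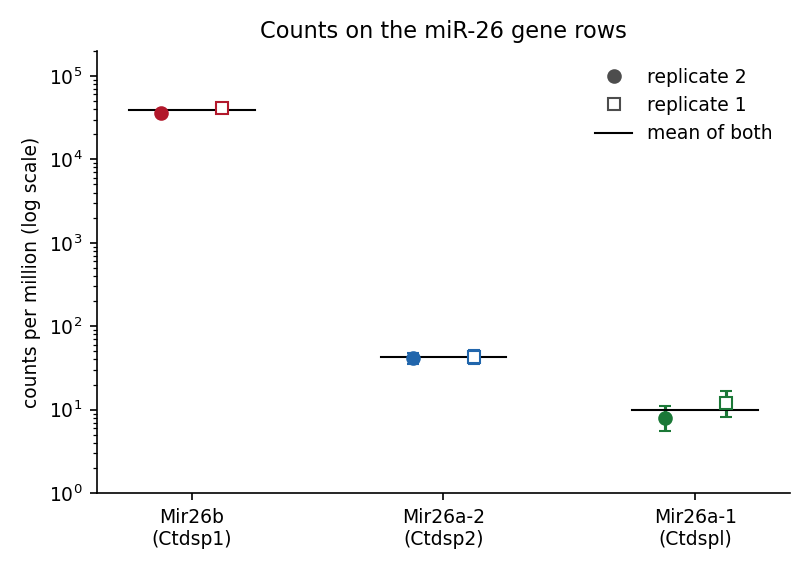
CPM on each miR-26 row (log axis) in replicate 2 (filled) and replicate 1 (open), with exact 95% Poisson intervals for counting error and the mean as a line. Mir26b lies near 38964 CPM, Mir26a-2 near 42.4 and Mir26a-1 near 9.91, and the ranges of the 3 rows do not overlap.

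Together the 3 rows held 3.62% of counts in replicate 2 (95% exact binomial interval 3.61 to 3.64) and 4.18% in replicate 1 (4.15 to 4.20). Mir26b made up 99.9% of that sum in both libraries. Both Mir26a rows together came to 212 counts in replicate 2 and 144 in replicate 1, or 0.136% and 0.132% of the family's counts. The Mir26b row was 732-fold and 756-fold the sum of the Mir26a rows, a log2 ratio of 9.54 ± 0.03 (SD, n = 2). This is a ratio of table rows and not of mature microRNAs, since reads of miR-26a-5p that match both loci are in neither Mir26a row. Per base of hairpin the rows stood at 458, 0.505 and 0.110 CPM for Mir26b, Mir26a-2 and Mir26a-1. The hairpins are of nearly the same length, so this scaling could not change the order of the rows. With 2 libraries, the smallest two-sided p of an exact test is 0.5, and levels are given without one.

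Between the copies, the Mir26a-2 row was above the Mir26a-1 row in both libraries. It was 5.24-fold the Mir26a-1 row in replicate 2 (95% exact binomial interval 3.61 to 7.80) and 3.65-fold in replicate 1 (2.43 to 5.61). The mean log2 ratio was 2.13 ± 0.37 (SD, n = 2). These intervals overlap and do not include equal rows. The ratio describes the reads that can be told apart. It gives no share of miR-26a-5p from either locus.

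In the order by mean CPM, Mir26b stood just below Mir335, which lies within the imprinted gene Mest and stood at 40942 ± 3741 CPM. These neighbours differed by less than the spread between libraries, although Mir335 was the higher in both. The next gene down, Mir322, which arrests the cell cycle during muscle differentiation, stood at 28333 ± 252 CPM and below Mir26b in both libraries. By distance in log2(CPM + 1) over the 2 libraries, the genes closest to Mir26b were Mir335 at 0.10, Mirlet7g at 0.39 and Mir17 at 0.57. Mirlet7g stood at 47117 ± 4690 CPM and Mir17 at 49109 ± 6186 CPM. With only 2 libraries such likeness is mostly a likeness of level.

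Mir26a-2 lay between Mir138-2 at 43.0 ± 8.17 CPM and Mir5113 at 42.4 ± 8.98 CPM, which did not differ from it beyond their spread. Its closest genes by the same distance were Mir19b-1 (0.07), Mir3066 (0.11) and Mir3105 (0.14). Mir19b-1, at 43.7 ± 2.75 CPM, also has an arm that is identical at another gene, Mir19b-2. Mir26a-1 shared place 302 with Mir5103, which had the same counts in both libraries. It stood below Mir302c at 9.98 ± 4.87 CPM and above Mir5619 at 9.66 ± 6.41 CPM, again within their spread. Its closest genes were Mir5103 (0), Mir291b (0.04) and Mir1945 (0.19).

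**Figure D3:**
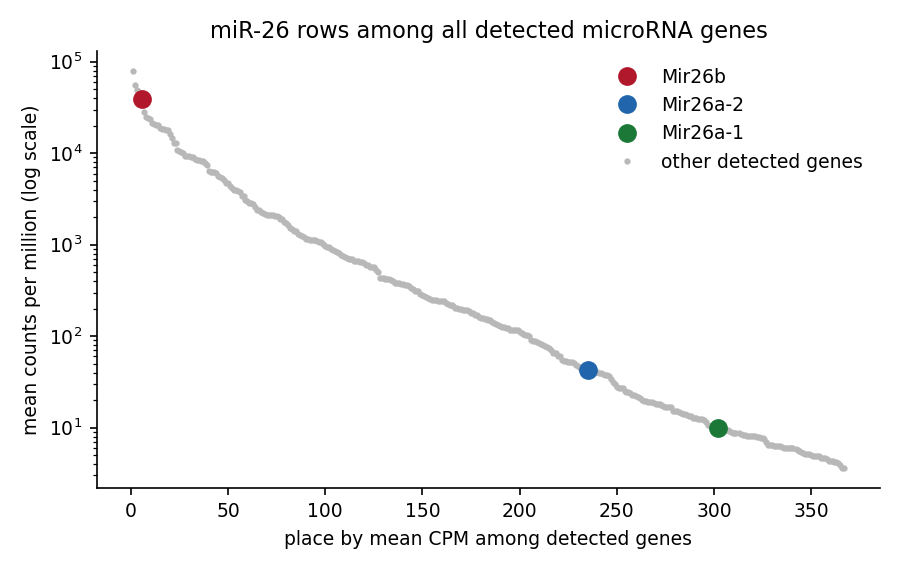
Mean CPM (log axis) of the 367 detected microRNA genes against their place in the order, with the miR-26 rows in colour. Mir26b is at place 6, Mir26a-2 at place 235 and Mir26a-1 at place 302.

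The gap between the rows was set beside other genes with identical copies. Of the 1973 genes, 916 were matched by symbol to a mature sequence in RefSeq. Genes without a match, Mir122 and Mir143 among them, are in no class below. A copy at a gene or arm without a RefSeq sequence was not seen, so the classes can miss copies. Of the 916 genes, 87 carried an arm found to be identical at another gene. For 53 of them, both Mir26a genes included, 1 of 2 arms was copied and the other was not. Of these 53 genes, 39 (73.6%) were below 100 CPM and 6 had no counts. Where all arms were copied, 32 of 34 genes (94.1%) were below 100 CPM and 26 had no counts. Among the 829 genes for which no copied arm was found, Mir26b included, 660 (79.6%) were below 100 CPM and 281 had no counts. Over all genes, the share of low rows was no higher with 1 copied arm than with none. Both shares take in genes with no counts, 6 of 53 and 281 of 829, so they cannot show what copying does to a row. Reads that match more than 1 copy are given to no gene, and how far this lowered each row was not tested. Of the 36 detected genes with 1 copied arm, 22 (61.1%) were below 100 CPM. Among detected genes, which passed a limit on counts, 24 of 40 with a copied arm (60.0%) and 120 of 289 without one (41.5%) were below 100 CPM. Their medians were 52.9 and 189 CPM. Rows of copied genes are lower limits, so rows and not mature microRNAs are compared here. No row of a copied gene came near the Mir26b row, below which 98.4% of all detected genes stood. The highest were Mir92-1 at 8365 ± 442 CPM, Mir16-1 at 6256 ± 183 CPM, Mirlet7f-2 at 1214 ± 33.0 CPM, Mir194-2 at 1128 ± 129 CPM and Mir16-2 at 1078 ± 101 CPM. A copied arm therefore went with rows from 0 to 8365 CPM, and a low row alone does not show how much of the mature microRNA was present.

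Mir26a-2 and Mir26a-1 form 1 of 28 pairs of counted genes that share an arm with each other and with no other counted gene. Of these pairs, 22 had a count. By the sum of both rows the Mir26a pair, at 52.3 ± 4.08 CPM (SD, n = 2), took place 13 of the 22, near their median of 59.2 CPM. Its stretch of 25 identical bases equalled the median of the 21 pairs with both hairpins in RefSeq, which ran from 22 to 43 bases. In 13 pairs both rows were detected, and the higher row was 1.06 to 139 times the lower by mean CPM, with a median of 5.80. The Mir26a pair, at 4.28 times, took place 8 of these 13.

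**Figure D4:**
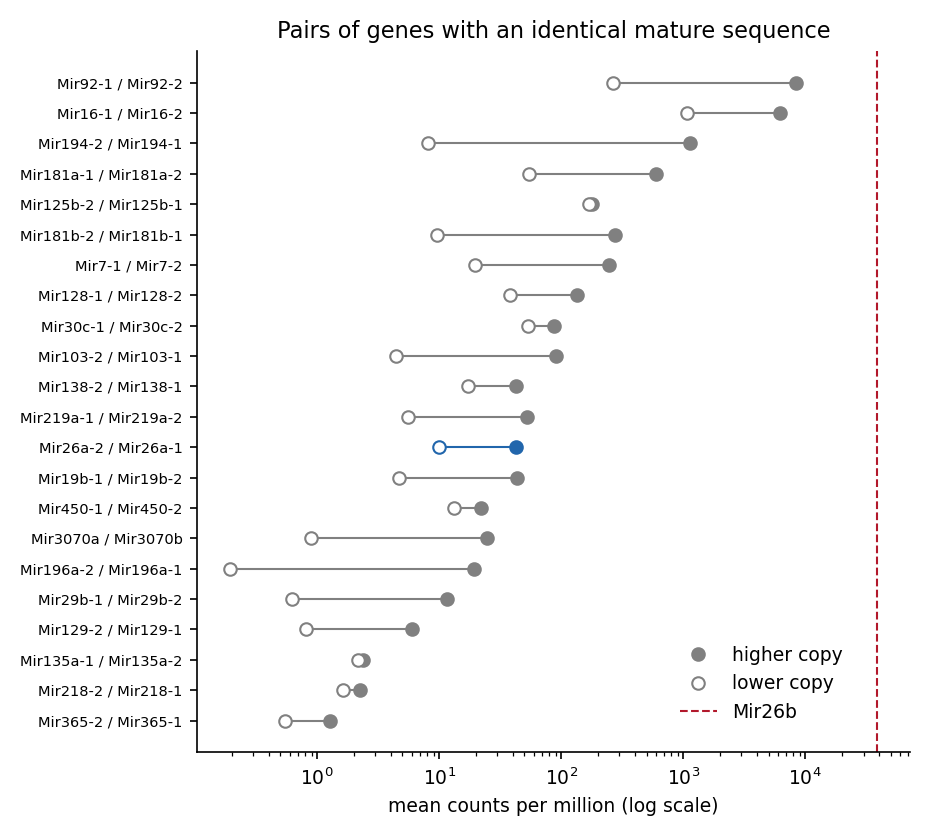
Mean CPM (log axis) of the higher copy (filled) and the lower copy (open) of the 22 pairs with an identical mature sequence and a count, in order of their sum, with the Mir26a pair in blue and Mir26b as a dashed line. The Mir26a pair, at 42.4 and 9.91 CPM, is place 13 of 22 in that order, and every pair lies left of Mir26b.

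Position in a host gene was then compared. Of the counted genes, 738 lay in an intron of a protein-coding gene on the same strand, and 149 of these were detected. Among these 149, Mir26b took place 4, Mir26a-2 place 90 and Mir26a-1 place 120, and their median was 91.4 CPM. Above Mir26b stood Mir126a, Mirlet7g and Mir335, and below it Mir30e, in an intron of Nfyc, at 18670 ± 1445 CPM. A microRNA gene in an exon of the same host, Mir546, lies on chromosome 10 at 126998440 to 126998560, 2.83 kb beyond Mir26a-2 in Ctdsp2. It had no counts in either library, so that levels up to 0.700 CPM (replicate 2) or 1.15 CPM (replicate 1) are allowed by a floor of 3 counts. Host messenger RNA was not measured.

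A chosen list of 13 other microRNA genes known for targeting cell-cycle or Polycomb genes, not a full set of such genes, was set beside the family. Of these 13 genes 12 were counted, from 8.48 CPM (Mir34b) to 8572 CPM (Mir15a), and all 12 were detected, with a median of 224 CPM beside 150 CPM over all detected genes. None of these 12 rows reached the level of the Mir26b row, but 98.4% of all detected genes also stood below that row. The rows of the 4 listed genes with a copied arm are lower limits. Of the miR-15 and miR-16 genes, which target cyclins, Mir15a stood at 8572 ± 324 CPM, Mir16-1 at 6256 ± 183 CPM and Mir16-2 at 1078 ± 101 CPM. Both Mir16 genes have a copied arm, so their rows are lower limits and were not ranked against Mir15a. Mir15b stood at 3056 ± 136 CPM and Mir195a, of the same seed family, at 279 ± 32.6 CPM. Of the miR-101 genes, which like miR-26a target Ezh2, Mir101b stood at 5294 ± 186 CPM and Mir101a at 80.1 ± 6.65 CPM. The p53-responsive miR-34 genes were low, with Mir34c at 168 ± 21.6 CPM, Mir34a at 52.6 ± 8.07 CPM and Mir34b at 8.48 ± 2.10 CPM. Mir138-2 and Mir138-1, copies of each other like the Mir26a genes, stood at 43.0 ± 8.17 and 17.4 ± 4.48 CPM. In bulk tissue a low level from fewer cells and from less RNA per cell cannot be told apart.

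Differences between the libraries were tested on each gene's split of counts (exact binomial test, two-sided), with Benjamini-Hochberg adjustment over 711 genes with a count. Mir26b was lower in replicate 2, at 36197 CPM, than in replicate 1, at 41732 CPM. Its log2 difference was -0.21 (95% counting interval -0.22 to -0.19; adjusted p = 8.27e-279, exact binomial test). Mir26a-2, at 41.5 CPM in replicate 2 and 43.3 in replicate 1, was not called, with a log2 difference of -0.06 (-0.41 to 0.29; adjusted p = 0.888, exact binomial test). Mir26a-1, at 7.93 CPM in replicate 2 and 11.9 in replicate 1, was not called either, at -0.58 (-1.33 to 0.17; adjusted p = 0.334, exact binomial test). Of the 3 members 1 was called, lower in replicate 2. Over all 711 genes 20.1% were called, 8.58% higher and 11.5% lower in replicate 2. That balance turned with the scaling: 61 genes were higher and 82 lower on CPM, 72 higher and 63 lower with TMM scaling, and 71 higher and 65 lower with DESeq2 scaling. Mir26b was lower in replicate 2 under all 3, at -0.17 with TMM and -0.18 with DESeq2. Of the 20 genes with at least 100000 counts over both libraries, 19 were called. The difference of Mir26b was 0.867-fold, and 159 of the 367 detected genes, whose median difference was 1.13-fold in either direction, differed by more. Mir26a-1 had the largest difference of the 3 and the fewest counts, and 48 of the 367 detected genes differed by more. Marker rows of other cell types were compared between the same libraries. Most sums differed little, though single rows within them were called. The 5 hepatocyte rows came to 85387 CPM in replicate 2, against 84575 CPM in replicate 1. Most of that was Mir122, at 80145 CPM against 79844 CPM, and 2 of the 5 rows were called, both higher in replicate 2. Mir126a, the endothelial row, came to 54545 CPM against 57502 CPM and was called lower in replicate 2. The 2 counted leukocyte rows came to 10187 CPM in replicate 2, against 10053 CPM in replicate 1, and the 3 mesenchymal rows to 19932 CPM against 20750 CPM. No leukocyte row was called. Of the mesenchymal rows, Mir214 was called higher and Mir143 lower in replicate 2. Neural rows were nearly empty, with 4 of 5 at 0. Both counted Mir9 rows have all arms copied at other genes, and no mature sequence was matched for the Mir124a rows. Their low counts therefore do not show that these microRNAs were absent. A single gene carried each of the larger differences between sums. Of the 3 erythroid rows, Mir451a had 26342 CPM in replicate 2, against 10750 CPM in replicate 1. Mir144 had 5873 CPM in replicate 2, against 6405 CPM in replicate 1, and Mir486 had 820 CPM against 834 CPM. Of the 4 striated muscle rows, Mir206 had 522 CPM in replicate 2, against 871 CPM in replicate 1, and the other 3 held at most 1 count in a library. For both Mir133a rows no mature sequence was matched, so copies of them were not checked. The near-empty muscle rows do not show that these microRNAs were absent. The part of these markers in the difference of Mir26b was not tested. The test compares these 2 libraries and no conditions.

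**Figure D5:**
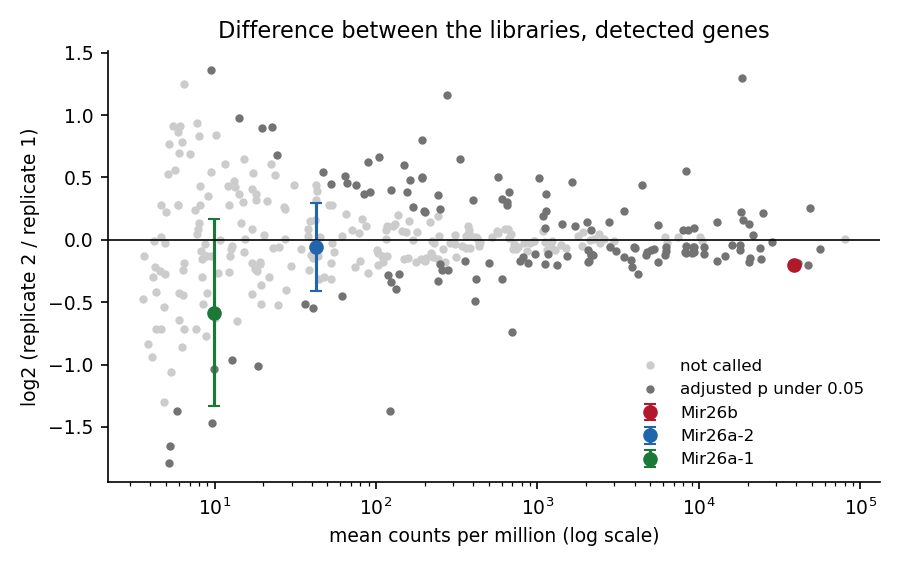
Log2 ratio of CPM in replicate 2 over replicate 1 against mean CPM (log axis) for the 367 detected genes, with called genes darker and the miR-26 genes in colour with 95% counting intervals. Mir26b lies at -0.21 with an interval narrower than its point, and the intervals of Mir26a-2 and Mir26a-1 include 0.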

How the data were processed

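The authors deposited raw read counts per gene, made on mm10 (per the labels) with GENCODE M4 (per the lists deposited beside them). Neither aligner nor counter is named in the sources used here. Of the reads of replicate 2 and of replicate 1, 32.0% and 36.7% mapped to several places, 24.2% and 19.6% were unmapped and 5.64% and 5.72% fell in no counted gene. These stand in rows of their own and were left out of totals and tests. The column for the gene's own strand was used. Identifiers were matched to GENCODE M21 on the same build, for 1894 of 1973 genes, and the other 79 had no counts on that strand.

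Sequences came from RefSeq (GRCm38.p6), matched by symbol. A copy means an identical mature sequence at another gene. Hairpins were folded with RNAfold 2.7.2. Tests used scipy 1.17.1 on Python 3.11.15. The binomial test was tried on simulated counts with counting error alone, which do not cover further spread between libraries. edgeR 4.0.16 (TMM) and DESeq2 1.42.0 gave alternative scalings. Nothing in the labels says that the biosamples came from separate litters, so differences between libraries may be partly technical.

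The members and lists were chosen with earlier results of these data known. Named genes were the members, the 3 genes nearest to each in level, the genes next to each in the order, the detected genes of the cell-cycle list, the 5 highest genes with a copied arm and genes that share a miR-26 seed. Genes of the M21 hosts are intronic where a host transcript spans the hairpin with no exon on it.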

Additional observations from a re-analysis of the deposited data

How the results depend on the processing

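The call or lack of call of each member between the libraries held under every alternative run. The order of the 3 rows and the direction of both ratios were the same in each library alone. Scaling could not change them, since it divides all rows of a library by the same number. Counts on both strands could not either, since no member had a count on the opposite strand. With counts on both strands, Mir26b stood at 34897 CPM and place 7, Mir26a-2 at 38.0 CPM and place 245, and the family's share at 3.49%, since the total grew and opposite-strand loci joined the order. With the reads at several places added to the denominator, Mir26b stood at 19369 CPM, Mir26a-2 at 21.1 CPM, Mir26a-1 at 4.90 CPM and the share at 1.94%. TMM and DESeq2 scaling moved no level by more than 1 SD. Leaving out each library in turn gave 36197 to 41732 CPM for Mir26b, 41.5 to 43.3 for Mir26a-2 and 7.93 to 11.9 for Mir26a-1. A detection limit of 1 count rather than 10 gave 559 detected genes in place of 367. The libraries differed in 135 to 153 genes over the alternatives, against 143 of 711 tested on CPM. With counts on both strands, 153 of 729 tested genes were called. Among only the 367 genes with at least 10 counts in each library, 150 were called, a larger share. The excess of lower over higher calls in replicate 2 reversed with TMM (72 higher, 63 lower) and with DESeq2 scaling (71 higher, 65 lower), against 61 higher and 82 lower on CPM. With a shared hairpin word of 20 bases as the sign of a copy, 929 genes in place of 87 had one. Words were sought in GENCODE M21 hairpins, and arms among the 916 genes matched in RefSeq. Of the 929 genes, 95.9% were below 100 CPM and 791 had no counts. Of the 965 genes with no such word, 82.7% were below 100 CPM and 392 had no counts. By identical arms, the shares below 100 CPM were 81.6% of 87 genes with a copy and 79.6% of 829 without. No paired analysis was possible because there is only 1 group. The number of libraries limits every statement on spread, and the 31 and 34 counts of Mir26a-1 limit its ratio to Mir26a-2.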
